A study of Bos taurus with 81 samples.

Results

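The longest H3K27me3 domains of the bovine blastocyst were followed back to the oocyte and read in the blastocyst's cell lineages. Members were chosen on the 29 autosomes as stretches under a peak in both whole-blastocyst (BL) H3K27me3 lists that were 40 kb or longer. Of 21349 such shared stretches, 693 met this limit. They made up 3.25% of the shared stretches, 17.7% of their length and 1.71% of the autosomes, or 42.5 Mb. H3K27me3 in BL therefore chose the members, and their full cover there is not a result.

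H3K27me3, trimethylation of lysine 27 on histone H3, is laid down by Polycomb repressive complex PRC2 and marks genes held silent but able to be switched on later. In mammalian cells its widest stretches often lie over clusters of developmental regulators. H3K9me3 marks constitutively silent chromatin and repeats, H3K4me3 marks promoters in most cells and also forms broad stretches in oocytes, and H3K27ac marks active promoters and enhancers. Open chromatin is read by ATAC-seq.

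Histone marks were mapped with CUT&Tag, where a transposase tethered by an antibody cuts at the mark. Germinal vesicle oocytes (GV) came from slaughterhouse ovaries and were taken before maturation in vitro. Embryos came from in vitro fertilisation and were taken with 2 cells at 32 h (2C), 4 cells at 44 h (4C) and 8 cells at 56 h (8C) after insemination, as morulae at 122 h (MO) and as blastocysts at 172 h (BL). A further 8-cell group, 8A, was grown with α-amanitin at 50 µg/ml, an inhibitor of RNA polymerase II. The inner cell mass (ICM), which forms the embryo proper, was isolated by immunosurgery, and the trophectoderm (TE), which forms the placenta, by cutting under a microscope. Each library pooled about 500 oocytes or 1000 to 1500 blastomeres, with 2 libraries per group for each of 4 marks in 9 groups and 3 ATAC-seq libraries each in BL, ICM and TE, 81 in all. Lineage purity was not checked here, because no gene annotation of the build used, ARS-UCD1.2, was at hand, and for the same reason domains are named by position and no gene or sequence is given. Nothing in the labels says that replicates came from separate oocyte or embryo batches, so p-values measure only the spread between these libraries. Sequencing depth was unknown, and a share of bases under peaks can move with depth as well as with the mark.

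Domain length ran from 40 to 228.6 kb, with a median of 53.2 kb. At the limit, 8 domains were exactly 40 kb long, such as chr3:116064801-116104800, and 9 shared stretches of 39.8 kb were left out, such as chr3:105379801-105419600. Mean H3K27me3 cover at GV was 100% in the first and 0% in the second, and at MO 98.5% and 0%. This pair is no sign of a break at the limit, since the 2 sides overlapped. Inside it, chr5:113278001-113318000 had 0% at GV and 28% at MO. Outside it, chr26:49546001-49585800 had 90.2% and 96.0%. The longest domain was chr16:75107401-75336000 (228.6 kb), followed by chr2:133914801-134135600 (220.8 kb), chr5:106511001-106694600 (183.6 kb) and chr16:45682601-45851400 (168.8 kb). Shared stretches of 10 kb to under 40 kb, 6833 in number, served as the shorter stretches for comparison. All 7526 stretches of 10 kb or more gave the background share for each count below. Most of them are these 6833 shorter stretches. What length alone adds to a gap between domains and background in the cover counts was not tested.

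The domains were widely covered in the oocyte, lost most of their cover by the 2-cell stage, regained little up to the 8-cell stage and were widely covered again in the morula. H3K27me3 covered on average 68.7% and 64.1% of a domain in the 2 GV libraries, 18.7% and 23.1% at 2C, 29.3% and 25.8% at 4C, 29% and 30.0% at 8C, and 78.6% and 75.1% at MO. The means were 66.4% ± 3.31 at GV, 20.9% ± 3.06 at 2C, 27.5% ± 2.47 at 4C, 29.5% ± 0.733 at 8C and 76.9% ± 2.47 at MO (SD, n = 2 each). No GV or MO library overlapped any 2C, 4C or 8C library. The stages differed by more than the spread between replicates (exact permutation test over all 945 groupings of the 10 libraries into 5 pairs, p = 0.0021164, adjusted over the 4 marks p = 0.0042328). In pooled cells, fewer cells with the mark and less mark per cell cannot be told apart. Autosomal cover moved less, from 9.55% at GV to 4.84% at 2C, 5.56% at 8C and 6.28% at MO. The domains were thus covered 6.95 times as widely as the autosomes at GV, 4.32 times at 2C, 5.31 times at 8C and 12.2 times at MO.

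**Figure D1:**
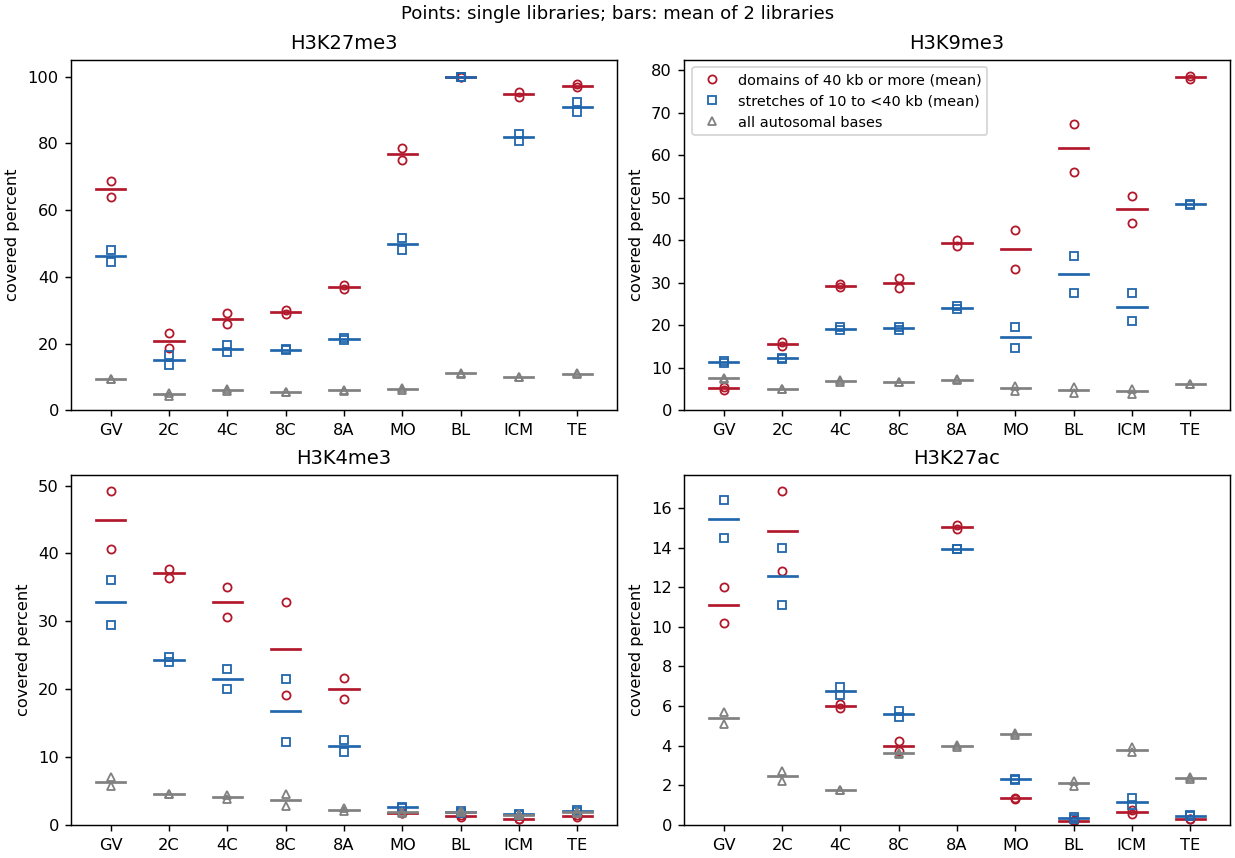
Covered percent (y axis) by stage (x axis) for the 4 marks, with circles for the mean over the 693 long domains, squares for the shorter stretches and triangles for all autosomal bases; points are single libraries and bars the mean of 2. H3K27me3 in the domains falls from 66.4% at GV to 20.9% at 2C and stands at 76.9% at MO, while H3K4me3 falls from 44.9% at GV to 1.81% at MO.

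Single domains followed the same course in most cases. In 503 of 693 domains, or 72.6%, every GV and every MO library lay above every 2C, 4C and 8C library, against 41.6% of all stretches of 10 kb or more. At GV, 478 domains were covered by 50% or more in both libraries (background 46.3%). The number was 66 at 2C (10.4%), 130 at 4C (14.8%), 162 at 8C (15.9%) and 566 at MO (50.5%). At 2C the share of domains covered, 9.52%, was near the background. Under 10% in both libraries were 26 domains at GV (background 30.2%), 267 at 2C (64.1%), 255 at 8C (64.4%) and 8 at MO (21.4%), so few were bare in the oocyte or the morula. By 25 points or more and with no overlap of libraries, 522 domains were higher at GV than at 2C (background 51.3%) and 12 were lower (5.79%). In 379 domains every MO library lay above every GV library (34.6%), and in 135 the reverse held (25%). By 25 points or more without overlap, 519 domains were higher at MO than at 8C (56.4%) and 19 were lower (8.36%).

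**Figure D2:**
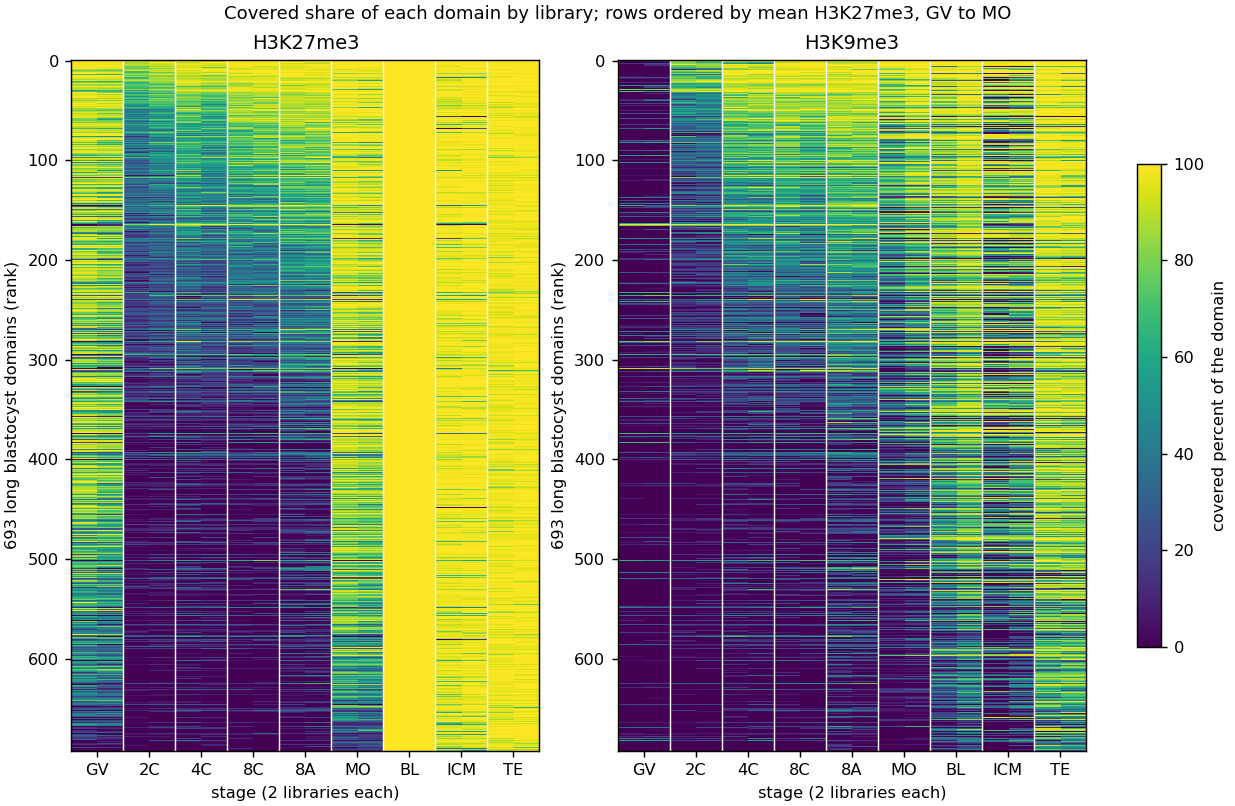
Covered percent of each of the 693 domains (drawn as rows, ordered by mean H3K27me3 cover from GV to MO) in each H3K27me3 and H3K9me3 library (columns, 2 per stage), from 0 (dark) to 100 (yellow). Most rows are bright at GV, dark at 2C to 8C and bright again at MO for H3K27me3, 303 of them with 50% or more in both libraries only at GV and MO; the H3K9me3 columns are dark at GV.

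The domains fell into a few courses when each stage was scored as covered by 50% or more in both libraries. The largest class, 303 domains, was covered at GV and MO only (background 24.2%). A further 111 were covered at MO only (15.2%), 52 at all 5 stages (4%), 44 at all but 2C (1.51%), 34 at GV only (11.1%) and 74 at none (29.9%). Cover at 2C, 4C or 8C without cover at MO was found in 19 domains, or 2.74%, below the background of 8.54%. The 74 domains covered at none thus passed the limit in BL with 25.0% cover at GV and 30.6% at MO on average. The classes also differed in place and in other marks, none of which chose them. H3K9me3 at 8C is still no independent readout here. Over the 693 domains its cover had a rank correlation of 0.95 with H3K27me3 at 8C, which enters the classes. Of the 52 domains covered throughout, 32 lay in the last 10% of their chromosome, against 159 of the 303 covered at GV and MO only, 6 of the 74 covered at none and 1 of the 34 covered at GV only. Over all 693 domains the share in the last 10% was 47.0%, and the 303, at 52.5%, lay near it. H3K9me3 at 8C averaged 88.7% over the 52 domains covered throughout, 17.0% over those covered at GV and MO only and 10.2% over those covered at none. H3K27ac at GV ran the other way, with 5.71%, 8.25% and 22.9%. H3K4me3 islands in BL were found in 9 of the 52 domains covered throughout and in 48 of the 111 covered at MO only. Over all 693 domains the share with such an island was 34.5% (background 19.3%), and the 303 had 35.6%.

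Much of the cover of the oocyte and the morula lay on the same bases, and both covered most of the domains. Of the domain bases listed by both GV libraries, 85.6% were listed by both MO libraries, against 72.7% of all domain bases. Of the MO bases, 72.2% had been listed at GV, against 61.4% of all domain bases. Only 7.39% of GV bases were in neither MO library. Bases in no H3K27me3 library from GV to MO made up 7.52% of the domains. Of the 8C bases, 77.2% had been listed at GV and 84.4% were listed at MO, against the same 61.4% and 72.7%. These shares carry no test. Across the 693 domains, cover at GV and at MO had a rank correlation of 0.53, and cover at GV and 8C one of 0.30, where neighbouring domains share a chromosome and each library enters all points. Length had rank correlations of only 0.06 with cover at GV and 0.05 at MO.

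Both blastocyst lists cover a domain without a break by the rule that chose it, so more breaks at the other stages follow in part from that choice. The longest unbroken stretch within a domain that both libraries listed had a median of 19.8 kb at GV, 4.2 kb at 2C, 6.0 kb at 8C and 25.4 kb at MO. It was 45.8 kb in ICM and 44.4 kb in TE.

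Cover was higher in the middle of the domains than at their edges. At MO it was 81.4% ± 2.83 in the middle 10% and 58.5% ± 3.24 at the edges (SD, n = 2; the edges are the outer 5% on each side), and at GV 70.1% ± 3.47 and 51.1% ± 3.03. At 8C the centre and edges lay closer, at 29.5% ± 0.413 and 24.4% ± 0.840. Outside the domains, MO cover dropped to 32.1% in the first 5 kb and stood at 44.6% between 45 and 50 kb away. The dip beside the edge is part of how the domains were chosen, since a shared stretch ends where at least one blastocyst list has a gap.

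**Figure D3:**
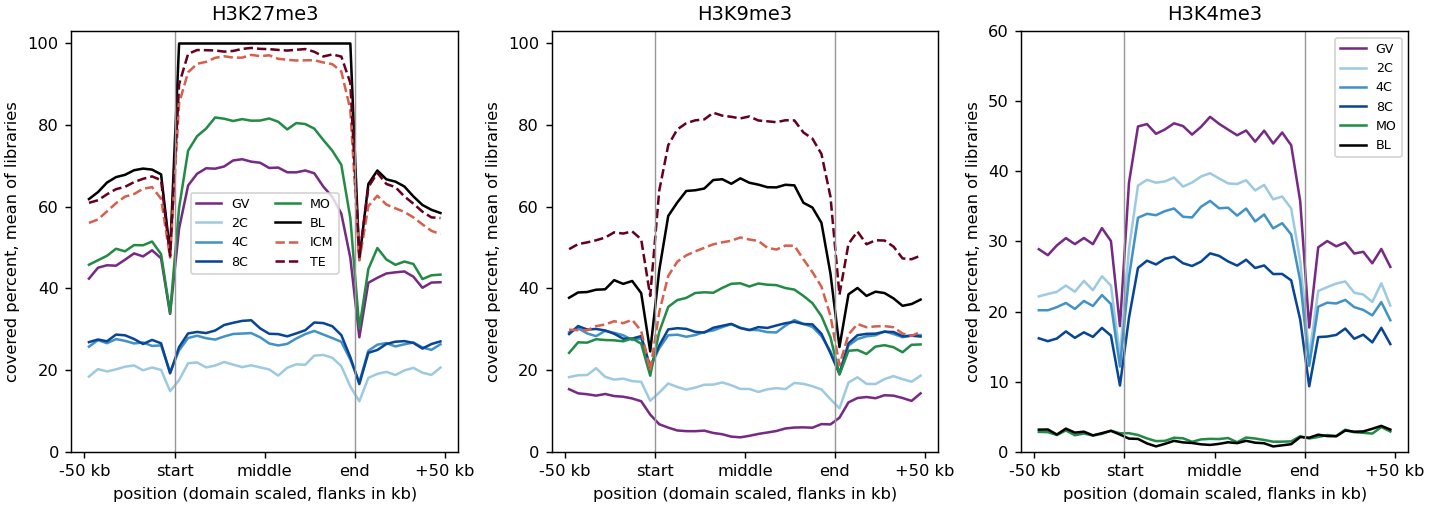
Covered percent (y axis, mean of the libraries) along the scaled domains and 50 kb of flank on each side (x axis) for H3K27me3, H3K9me3 and H3K4me3, with 1 line per stage. At MO, H3K27me3 stands at 81.4% in the middle against 32.1% in the first 5 kb outside; H3K9me3 at GV is lowest in the middle, at 3.71%.

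The long domains carried more H3K27me3 before the blastocyst stage than the shorter stretches, in every library. The difference was 20.1 points at GV, 5.90 at 2C, 9.0 at 4C, 11.3 at 8C and 26.9 at MO. Over the 10 libraries it averaged 14.6 points and was positive in 10 of 10 (exact sign-flip permutation test, two-sided, p = 0.00195312, the smallest possible). The libraries span different stages and all read the same sets of stretches, so they are not independent replicates. The p-value therefore speaks only to the shared sign. H3K27me3 in BL set where a stretch ends, and cover was lower at the edges of the domains. Shorter stretches have more edge for their length, and what this adds to the difference was not tested. Cover rose with length class below the limit and less above it: at MO it was 46.2% for stretches of 10 to under 20 kb, 59.1% for 20 to under 40 kb, 76.2% for 40 to under 60 kb, 76.1% for 60 to under 80 kb and 80.7% for 80 kb or more.

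H3K9me3 was scarce in the domains of the oocyte and covered most of their length in BL. It covered 5.21% ± 0.478 at GV, 15.7% ± 0.747 at 2C, 29.3% ± 0.584 at 4C, 29.9% ± 1.71 at 8C, 37.9% ± 6.56 at MO and 61.7% ± 8.02 in BL (SD, n = 2). The stages from GV to MO differed (exact permutation test, p = 0.0031746, adjusted p = 0.0042328), while the autosomes as a whole went from 7.51% at GV to 5.17% at MO and 4.71% in BL. In the oocyte the domains were thus poorer in H3K9me3 than the autosomes, and in BL 398 of 693 were covered by 50% or more in both libraries (background 27.3%). The domains, 1.71% of the autosomes, held 26.6% of all autosomal bases listed by both BL H3K9me3 libraries, against 1.28% at GV.

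At 2C, 4C and 8C, most of the domain bases with H3K27me3 also had H3K9me3, unlike at GV and MO. Of the domain bases with H3K27me3, 3.11% also had H3K9me3 at GV, 57.5% at 2C, 84.6% at 4C, 83.5% at 8C and 41.8% at MO. Over all autosomes these shares were 5.80%, 59.7%, 82.9%, 86.5% and 31.5%. The domains were thus lower than the autosomes at GV, 2C and 8C and higher at 4C and MO. In BL the share was 53.8% in the domains against 26.6% over all autosomes. These shares carry no test. Across the 693 domains, the 8C cover of both marks had a rank correlation of 0.95. Libraries of both marks came from pools of the same stage, and whether one antibody also captured the other mark was not tested.

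H3K4me3 ran opposite to H3K9me3. It covered 44.9% ± 6.02 of a domain at GV, 37.1% ± 0.857 at 2C, 32.9% ± 3.13 at 4C, 26.0% ± 9.74 at 8C and 1.81% ± 0.0330 at MO (SD, n = 2; exact permutation test, p = 0.0042328, adjusted p = 0.0042328). In the oocyte it shared bases with H3K27me3: 42.0% of the domain bases with H3K27me3 at GV had H3K4me3 too, against 25.3% over all autosomes. At MO this was 1.60% in the domains and 3.23% over all autosomes. Domains covered by 50% or more by H3K4me3 in both libraries numbered 189 at GV (background 16.8%), 56 at 8C (4.81%) and 1 at MO (0.279%), and 289 were lower at MO than at 8C by 25 points or more without overlap (23%).

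From GV to MO, H3K27ac was highest at 2C and lowest at MO. It covered 11.1% ± 1.31 at GV, 14.8% ± 2.84 at 2C, 6.00% ± 0.129 at 4C, 3.98% ± 0.345 at 8C and 1.35% ± 0.0390 at MO (SD, n = 2; exact permutation test, adjusted p = 0.0042328, from a raw p of 0.0010582, the smallest possible). In BL it covered 0.219% ± 0.0399, against 2.09% of the autosomes. The domains thus went from more H3K27ac than the autosomes at GV, where these had 5.39%, to less at MO, where they had 4.58%. The excess was widest at 2C, where the domains were covered 6.02 times as widely as the autosomes, which had 2.47%. It was 2.06 times at GV, 3.42 times at 4C and 1.10 times at 8C.

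With α-amanitin, both repressive marks covered more of the domains at the 8-cell stage than without it. H3K27me3 covered 36.4% and 37.4% in the 2 8A libraries and 29% and 30.0% in the 2 8C libraries, a difference of 7.39 points against 3.20 in the shorter stretches and 0.424 over the autosomes. H3K9me3 stood 9.47 points higher, at 39.4% ± 0.926 against 29.9% ± 1.71. H3K27ac showed the widest gap, with 15.0% ± 0.162 in 8A and 3.98% ± 0.345 in 8C. The libraries of the 2 groups did not overlap for these 3 marks, and each had an exact permutation p of 0.33, the lowest value that 2 libraries a group allow. H3K4me3 did overlap, with 20.1% ± 2.3 in 8A and 26.0% ± 9.74 in 8C (exact permutation test, p = 0.667). By 25 points or more without overlap, 64 domains had more H3K27me3 in 8A (background 7.48%) and 0 had less (2.46%). H3K9me3 was higher in 8A in 68 domains (8.37%), and H3K27ac in 86 (12.6%). The shares higher in 8A, 9.24%, 9.81% and 12.4%, were near the background for all 3 marks.

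On average, the domains were almost fully covered by H3K27me3 in both lineages. ICM and TE are parts of the blastocyst, whose H3K27me3 chose the members, so wide cover there follows in part from that choice. H3K27me3 covered 93.9% and 95.4% of a domain in the ICM libraries and 96.8% and 97.9% in the TE libraries, with medians over domains of 98.5% and 98.4%. The mean difference, -2.65 points for ICM minus TE, had an exact permutation p of 0.33, the smallest possible. With the median over domains in place of the mean it was 0.0960 points, so the direction turned with the summary. Mean cover was higher in ICM in 326 domains and in TE in 320. Of the 693 domains, 680 were covered by 50% or more in both ICM libraries (background 85.4%) and 693 in both TE libraries (96.1%). Only 8 domains were under 50% in both ICM libraries (8.68%), and 0 in both TE libraries (1.33%). The shorter stretches differed more between the lineages, by 9.07 points, with 81.9% in ICM and 91.0% in TE.

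**Figure D4:**
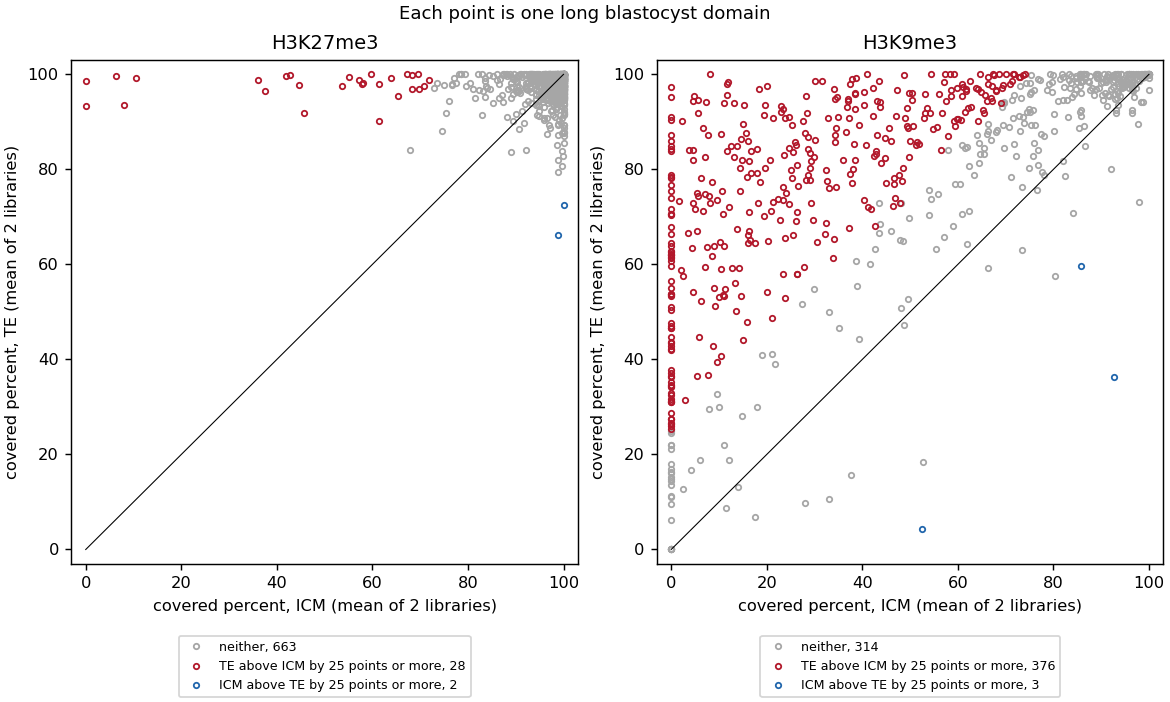
Mean covered percent in ICM (x axis) against TE (y axis) for each of the 693 domains, for H3K27me3 and H3K9me3; red marks domains higher in TE by 25 points or more with no overlap of libraries, blue those higher in ICM. For H3K27me3, 28 domains are red and 2 blue and the rest crowd at the upper right, while for H3K9me3, 376 are red and 3 blue.

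The 30 domains that differed between the lineages by 25 points or more without overlap of libraries were unevenly split. TE was higher in 28, or 4.04% (background 16.5%), and ICM in 2, or 0.289% (4.68%). Both shares lay below the background, which was split in the same direction, so the split is not particular to the long domains. These domains were chosen by their H3K27me3 and are described by their other readouts. In the 28, H3K27me3 averaged 48.3% in ICM and 97.6% in TE. Of them, 10 had been covered at MO, against 554 of the 663 domains in neither set (background 50.5%). Their H3K27ac averaged 5.86% in ICM and 0.197% in TE, against 0.438% and 0.298% in the 663 domains in neither set. In 14 of the 28 both ICM libraries had more H3K27ac than both TE libraries, and in 0 the reverse (background 8.81% and 3.41%), against 70 and 41 of the 663. Islands of H3K27ac in ICM, meaning stretches under a peak in every library, lay in 13 of the 28 domains, 60 islands in all (background 9.79%). In TE they lay in 4 domains with 6 islands (5.61%). Of the 663, 87 held such islands in ICM and 58 in TE. ATAC-seq covered 10.5% of the 28 in ICM and 6.39% in TE, with every ICM library above every TE library in 15 and the reverse in 1 (background 14.6% and 10.6%). H3K9me3 was lower in ICM as well, at 7.70% against 50.4% in TE. It was also lower in ICM in the 663, at 49.05% against 79.7%. Both TE libraries lay above both ICM libraries in 23 of the 28 and in 527 of the 663 (background 47%). This direction is therefore not particular to the 28.

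The domain with the widest gap, chr11:12965001-13007400, had an unusual course. H3K27me3 covered 0% and 12.3% of it at GV, 83% and 100% at 2C, 100% in both libraries at 4C and 8C, 0% in both at MO and in both ICM libraries, and 100% and 97.2% in TE. H3K9me3 was there from the oocyte, with 97.2% and 100% at GV, and was at 0% and 11.3% in ICM and 95.3% and 93.9% in TE. The domain thus had both repressive marks in TE and next to none in ICM. At chr19:40660401-40714600, H3K27me3 was 0% and 12.5% in ICM and 99.6% in both TE libraries, H3K27ac was 20.7% and 16.4% in ICM and 0% in both TE libraries, and ATAC-seq covered 15.5% to 17.9% in ICM and 3.14% to 4.80% in TE. H3K4me3 was 11.9% and 11% in ICM and 1.94% and 1.84% in TE, and H3K9me3 was 0% in both ICM libraries and 41.3% and 45.8% in TE. All 5 readouts of this domain thus separated the lineages without overlap. The domain chr13:72818401-72865000 was covered by 90.6% in both GV libraries, 0% in every library from 2C to 8C, 78.5% and 75.1% at MO, 0% in both ICM libraries, and 93.1% and 93.6% in TE. Its cover at MO lay near that of the oocyte, and no ICM library had any.

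The 2 domains higher in ICM were chr28:34805201-34856800 and chr10:17119001-17163600. The first had H3K27me3 at 97.7% and 100% in ICM and 62.4% and 69.8% in TE, and H3K27ac at 1.74% and 0% in ICM and 8.72% and 10.7% in TE. The second had 100% in both ICM libraries and 80.3% and 64.6% in TE, with no H3K27ac peak in any BL, ICM or TE library. So H3K27ac lay in the lineage with less H3K27me3 in the first and in neither in the second.

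H3K27me3, whose cover in BL chose the members, was near full cover in both lineages and had little room to differ. H3K9me3 did not choose them and differed more. It covered 47.3% ± 4.41 of a domain in ICM and 78.4% ± 0.423 in TE (SD, n = 2), a difference of 31.1 points in favour of TE (exact permutation test, p = 0.33, the smallest possible). The gap was 24.2 points in the shorter stretches and 1.67 over the autosomes, where cover was 4.51% in ICM and 6.18% in TE. The H3K9me3 lists covered 96.6 and 128 Mb of the autosomes in ICM and 153 and 154 Mb in TE. What list size adds to the gap in the domains was not tested. In 376 domains TE was higher by 25 points or more without overlap (background 38.9%) and in 3 ICM was higher (2.5%). Domains covered by 50% or more numbered 291 in both ICM libraries (background 21.4%) and 576 in both TE libraries (48%). Over domains, TE minus ICM had a median of 28.5 points and quartiles of 10.3 and 50.4.

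Against the autosomes, the domains were poor in H3K27ac islands in BL and held more ATAC islands for their length. An island here is a stretch under a peak in every library of the assay in that group. BL had 500 H3K4me3 islands in 239 domains (background 19.3%), 136 H3K27ac islands in 71 (5.45%) and 2257 ATAC islands in 517 (50.2%). In ICM, H3K4me3 islands lay in 180 domains (14.7%), H3K27ac islands in 100 (9.79%) and ATAC islands in 471 (45.5%). In TE the numbers were 221 (17.7%), 63 (5.61%) and 459 (42%). Longer domains hold more islands by length alone, so density is the fairer measure. H3K4me3 islands numbered 1.18 per 100 kb in the domains, 1.74 in the shorter stretches and 1.37 over the autosomes. H3K27ac islands numbered 0.320, 0.443 and 2.28, and ATAC islands 5.31, 6.78 and 4.05. By bases, ATAC islands covered 2.93% of the domains and 2.54% of the autosomes in BL. The shares were 2.44% and 2.40% in ICM and 2.08% and 2.37% in TE, so by cover the domains were not richer in TE. Islands of BL had a median width of 650 bp for H3K4me3, 350 bp for H3K27ac and 450 bp for ATAC, against 750, 450 and 450 bp over the autosomes.

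All 3 readouts covered less of the long domains than of the shorter stretches over the BL, ICM and TE libraries. ICM and TE are parts of the blastocyst, and every library reads the same 2 sets of stretches. The libraries in the tests below are therefore not independent replicates of 1 comparison. The mean difference was -0.679 points for H3K4me3 (6 of 6 libraries lower; exact sign-flip permutation test, p = 0.031, adjusted p = 0.031, the smallest possible with 6 libraries). It was -0.273 points for H3K27ac (6 of 6 lower, exact permutation p = 0.031, adjusted p = 0.031). Without any one of the 6 libraries, both marks had an exact permutation p of 0.0625, the smallest that 5 libraries can give. For ATAC it was -1.22 points (9 of 9 lower, exact permutation p = 0.00390625, adjusted p = 0.0117188). With members from a single blastocyst H3K27me3 list, it was -0.751 points without replicate 1 and -1.08 without replicate 2, and with a length limit of 30 kb it was -0.533. At that limit H3K4me3 was at -0.380 points, and against stretches of 20 to under 40 kb H3K27ac was at -0.118. These differences are small in points because the islands cover little: in BL, H3K4me3 covered 1.28% ± 0.221 of a domain and ATAC 5.43% ± 1.43 (SD, n = 2 and 3). In BL, ICM and TE, all 3 readouts were lower in the middle of the domains than at their edges. In BL the middle and edges had 5.18% and 7.06% for ATAC, 1.05% and 1.98% for H3K4me3, and 0.107% and 0.581% for H3K27ac. H3K27me3 in BL set where a stretch ends, and shorter stretches have more edge for their length. What this choice adds to the differences was not tested.

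Islands of different readouts coincided in their own way inside the domains. Of the H3K4me3 islands of BL in the domains, 86.6% overlapped an ATAC island and 9.8% an H3K27ac island, against 79.9% and 59.3% of H3K4me3 islands over the autosomes. Most H3K4me3 islands in the domains thus lay on open sites that lacked H3K27ac. By combination, 257 domains held ATAC islands alone (background 29.5%), 189 held H3K4me3 and ATAC (15.4%), 48 all 3 (3.61%), and 174 none (49.5%), where length again favours the long domains. The 174 without an island had more H3K9me3 in BL, 70.8%, than the 61.7% of all domains. H3K27ac islands had less H3K27me3 in their own lineage than in the other: of the bases of ICM H3K27ac islands in the domains, 45.4% were under H3K27me3 in ICM and 88.9% in TE, while of TE islands 90.6% were under H3K27me3 in ICM and 59.5% in TE. These shares carry no test. Of the ICM H3K27ac islands in the domains, 75.5% overlapped none in TE, against 46.1% over the autosomes. Of the TE H3K27ac islands in the domains, 61.3% overlapped none in ICM, against 26.9% over the autosomes.

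The richest domain in H3K4me3 islands was chr4:68848601-68906600, with 14 H3K4me3 and 24 ATAC islands in BL and no H3K27ac island. H3K27me3 covered 100% and 92.4% of it at GV, 0% in both libraries at 2C and 4C, 5.86% and 0% at 8C, 90.3% and 85.9% at MO, 100% in both ICM libraries and 95.2% and 99.3% in TE. H3K4me3 stayed high where other domains lost it, with 50.2% and 51.7% at MO and 19.1% and 29.1% in BL. H3K27ac reached 65.9% and 71.2% at 8C and was 0% in both BL libraries. A like course was seen at chr2:20793201-20847000, with 9 H3K4me3 and 25 ATAC islands: H3K27me3 was 100% and 97.4% at GV, 0% in every library at 2C, 4C and 8C, and 98.1% and 88.1% at MO. Its H3K4me3 was 38.7% and 40.6% at MO, and its H3K27ac 54.2% and 54.4% at 8C and 0.651% in both BL libraries. In both, H3K9me3 was at 0% in every library from GV to 8C.

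Other island-rich domains differed from these. At chr21:67760601-67829400, 13 H3K4me3, 13 H3K27ac and 25 ATAC islands lay in a domain with 100% and 98.0% H3K27me3 at GV and 100% in both TE libraries. H3K27ac covered 17.2% and 20.6% of it in BL, the most of any domain named here. At chr3:14157401-14204400, with 6 H3K27ac and 19 ATAC islands in BL, H3K27me3 was 44.7% and 62.6% in ICM and 95.3% and 99.6% in TE, while H3K27ac was 38.6% and 34.3% in ICM and 2.23% and 3.40% in TE. No H3K9me3 peak of any library touched it. The domain chr29:47144601-47200400 had 6 H3K27ac islands and no H3K4me3 island in BL, with H3K9me3 at 91.4% and 100%.

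**Figure D5:**
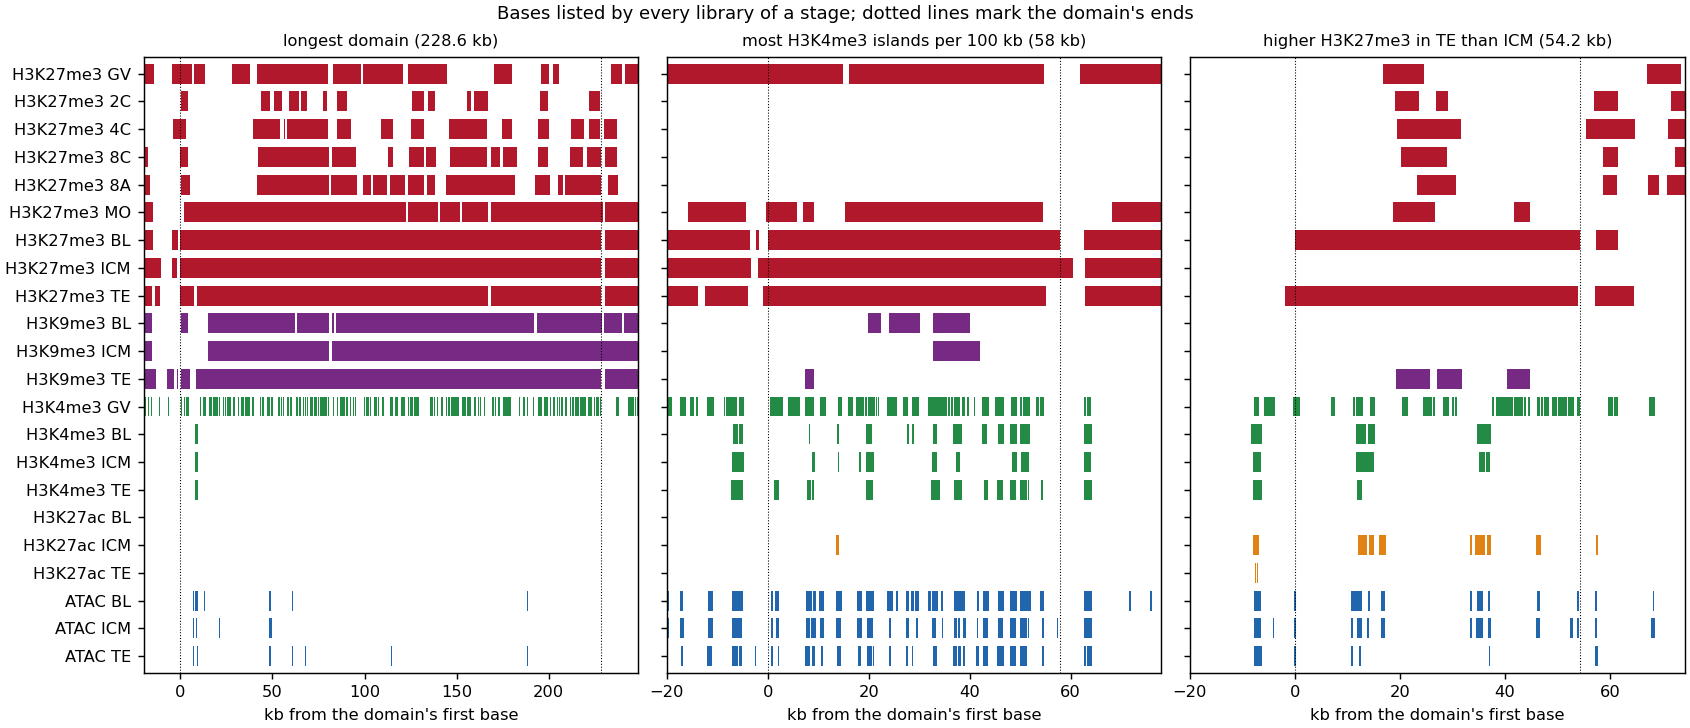
Bases listed by every library of a stage (bars) in 3 domains, by kb from the domain's first base (x axis) and by mark and stage (rows), for the longest domain (228.6 kb), the domain richest in H3K4me3 islands (58 kb) and a domain higher in TE than ICM (54.2 kb). The second panel has no H3K27me3 bar at 2C, 4C and 8C and 24 ATAC islands in BL, and the third has, between its dotted ends, 7 H3K27ac islands in ICM, none in TE and no H3K27me3 bar in ICM.

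The 10 longest domains showed several of these courses. In chr16:75107401-75336000, H3K27me3 was 66.8% and 64.0% at GV, 29.9% and 43.7% at 2C, 66.8% and 62.8% at 8C and 98.8% and 97.5% at MO. It held 1 H3K4me3 and 7 ATAC islands in its 228.6 kb. The domain chr2:133914801-134135600 went from 96.5% and 93.8% at GV to 16.7% and 25.3% at 2C, 39.4% and 42.1% at 8C and 99.2% and 98.3% at MO. The lowest cover at 2C among the 10 was at chr8:111838401-111983400, with 87.2% and 83.9% at GV, 6.21% and 0% at 2C, 1.38% and 4.00% at 8C, and 100% and 98.9% at MO. It had 0 ATAC islands in BL over its 145.0 kb, 5 in ICM and 2 in TE. The second lowest at 2C, chr15:80327201-80483600, had 94.8% and 81.3% at GV, 4.22% and 4.73% at 2C and 98.8% and 93.9% at MO.

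The reverse was seen at chr5:106511001-106694600, the third longest. H3K27me3 covered 88.0% and 87.7% at GV, 86.5% and 91.0% at 2C, 95.1% and 95.3% at 8C, and 68.4% and 57.3% at MO. It was lower at MO than at any earlier stage, and its H3K9me3 was 79.6% and 82.2% at GV, where 83.7% of the domains had under 10% in both libraries (background 81.9%). The fourth longest, chr16:45682601-45851400, changed little before BL, with 40.9% and 33.5% at GV, 34.1% and 37.2% at 8C and 43.8% and 36.4% at MO. The other 4 of the 10 were chr4:114277001-114430400, chr5:114733201-114873400, chr2:127929001-128068200 and chr6:114947401-115086200, and in each both MO libraries lay above both GV libraries.

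At the extremes of early cover, chr16:239001-364800 was covered by 98.4% or more in every H3K27me3 library from GV to MO. Over its 125.8 kb it had no ATAC, H3K4me3 or H3K27ac peak in any BL, ICM or TE library. The next were chr5:118376801-118421800 and chr4:225001-265400, with mean cover from GV to MO of 97.8% and 97.0%. The lowest was chr29:25451601-25493400, with no H3K27me3 peak from GV to 8C, 10.5% and 12.9% at MO, 78.5% and 52.2% in ICM and 90.9% and 100% in TE. H3K27ac covered 62.0% of it in both GV libraries and 0% in every library from 8C on. Likewise low were chr23:14293001-14337400, with 20.7% and 18.0% at MO, and chr15:76984001-77044400, with 9.93% and 21.2% at MO and 34.1% and 38.1% in ICM. H3K9me3 in BL was at 100% in both libraries in 8 domains, among them chr2:144601-229400 and chr2:134769001-134835200, where both MO H3K27me3 libraries were at 99.1% or more.

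The domains were gathered near one end of the chromosomes and close to each other. Of the 693, 326 (47.0%) lay in the last 10% of their chromosome by coordinate, against 30.6% of the shorter stretches. The first 10% held 6.93% of the domains. Those 326 had more H3K27me3 at MO than the other 367, with 90.2% against 65.0%, more H3K9me3 in BL, with 79.8% against 45.6%, and H3K4me3 islands in BL at 1.21 against 1.15 per 100 kb. Domains per 10 Mb were most frequent on chromosome 19 (8.20, 52 domains) and chromosome 29 (7.24, 37 domains), and least on chromosome 1 (0.820, 13 domains). Chromosome 5 had the most in number, 61. The gap between neighbouring domains had a median of 234.8 kb, 237 of 664 gaps were under 100 kb and 82 were under 10 kb.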

How the data were processed

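CUT&Tag libraries for 4 histone marks (2 per group, 9 groups) and ATAC-seq libraries (3 per group in BL, ICM and TE) were represented by the peak lists that the authors deposited, 1 per library. Each list gives peak positions and a score per peak; the deposited score, whose meaning no header explains, served only to leave out the lowest 25% of peaks in an alternative. The submitters' processing notes name Trim Galore 0.4.0, cutadapt 1.8.3, BWA 0.7.9a, SAMtools 1.9, Picard 2.26.10, SICER and the build ARS-UCD1.2. Sequencing depth per library is unknown, so no interval is given for it. Autosomal lists held 12477 to 29713 peaks for H3K27me3, 7654 to 18799 for H3K9me3, 21874 to 178845 for H3K4me3, 58732 to 158491 for H3K27ac and 97691 to 150417 for ATAC. H3K27me3 and H3K9me3 peaks lie on a 200 bp grid with gaps of at least 1200 bp, the other lists on a 50 bp grid with gaps of at least 100 bp.

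Covered percent is the share of a region's bases under a peak of one library. It was computed for every domain and every shared stretch of 10 kb or more with Python 3.11.15, NumPy 2.4.6, pandas 2.3.3 and SciPy 1.17.1, and figures were drawn with matplotlib 3.10.9. Library means were compared with exact permutation tests, two-sided, with Benjamini-Hochberg adjustment over the 4 marks or the 3 island readouts; the procedure was tested on simulated data. A domain was called covered at 50% or more in both libraries, bare at under 10%, and different between groups at 25 points or more without overlap. Shares of stretches called are given as background. Named domains are the 10 longest and the extremes of early cover, lineage difference, island density and blastocyst H3K9me3. The members, lists and rules were chosen with earlier results of these data known. Alternatives changed the length limit, joining of neighbours, cover limits, peak filter, summary and libraries used.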

Additional observations from a re-analysis of the deposited data

Results flagged for a closer look

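For 3 marks, the difference between the long domains and the shorter stretches had one sign in both libraries of some groups and the opposite sign in both libraries of the others. Whether these differences differ between groups was not tested. H3K9me3 was lower in the long domains at GV, by -6.20 points, and higher in the 8 other groups. H3K4me3 was higher in the long domains in the 5 groups from GV to 8A, and lower at MO (-0.771 points), in BL (-0.659), in ICM (-0.655) and in TE (-0.725). H3K27ac was lower in the long domains in 7 groups and higher at 2C (2.29 points) and in 8A (1.08).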

How the results depend on the processing

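Each of the 4 tests over GV to MO kept its call under 19 alternatives, with exact permutation p between 0.0010582 and 0.0338624. H3K27me3 stayed higher in the long domains than in the shorter stretches in 19 alternatives, by 9.55 to 21.5 points, and 8A stayed above 8C in 13, by 4.42 to 13.8 points. The number of domains was 1278 at a limit of 30 kb, 414 at 50 kb and 1531 with stretches under 5 kb apart joined. ICM minus TE was 0.0960 points with the median over domains, the opposite direction. Domains covered numbered 290 at GV, 20 at 2C, 43 at 4C and 81 at 8C at a limit of 75%, and 202 at 2C, 267 at 4C and 284 at 8C at 25%. H3K27ac islands of any BL library lay in 110 domains. With members from a single blastocyst list, 978 (without replicate 1) and 884 (without replicate 2), the island differences between long domains and shorter stretches were -0.520 and -0.611 points for H3K4me3, -0.241 and -0.347 for H3K27ac and -0.751 and -1.08 for ATAC. With BL libraries only, they were -0.659 points for H3K4me3, -0.136 for H3K27ac and -1.32 for ATAC, where the few libraries cannot reach the threshold. Leaving out 1 library in turn gave -0.691 to -0.663 for H3K4me3 and -0.303 to -0.211 for H3K27ac, each with an exact permutation p of 0.0625, the smallest that 5 libraries can give.

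Replicate numbers did not pair the H3K27me3 libraries: deviations of same-numbered libraries correlated between -0.103 and 0.0788 over 10 pairs of stages, with 0 above 0.1, and those of H3K4me3 between -0.0644 and 0.402, with 2 above 0.1. With the replicate block, the exact permutation p over GV to MO was 0.0166667 for H3K27me3 and H3K9me3 and 0.00833333 for H3K4me3 and H3K27ac, ICM minus TE was -2.65 points and 8A minus 8C 7.39. Depth limits every covered percent, since unlisted bases may lack reads.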

Other observations

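On the X chromosome, left out of the domains, 15 of 904 stretches shared by both blastocyst H3K27me3 lists were 40 kb or longer, the longest 91 kb. The 19 autosomal domains covered at 2C, 4C or 8C and not at MO were chosen by their H3K27me3 at those stages, and averaged 72.3% H3K27me3 in ICM. They averaged 51.2% H3K9me3 in the oocyte, against 5.21% over all 693 domains, and 17.2% H3K4me3, against 44.9%.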
